A study of Mus musculus with 6 samples.

Results

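The red cell membrane is held to its skeleton by a small set of integral and adaptor proteins, and 9 genes of that set were followed here in erythroblasts with and without P38α. They were Ank1, Slc4a1, Gypc, Rhag, Kel, Icam4, Tmod1, Add1 and Add2. A probe was taken for a gene when the array annotation gave it that gene name and did not mark it as a control. The rule found 10 of 55681 probes, 1 for each gene and a second for Add1, and no measured value entered it. All 10 probes were well above background on all 6 arrays and all 9 genes were among the 14157 genes tested.

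Both groups were C57Bl/6 mice that carried the Mx1-Cre transgene. It is switched on by interferon and acts in haematopoietic cells as well as in other tissues that respond to it. The study used male and female mice, and the sex of the mouse behind each array is not given in the sources used here. The controls were Mx1-Cre/P38α fl/+ (P38α+/−, labelled P38hetero), so they had themselves lost 1 allele, and the test group was Mx1-Cre/P38α fl/fl (P38α−/−, labelled P38ko). All mice received 3 injections of 300 µg PolyIC at 6 to 8 weeks of age, were rested for 6 weeks, and were then given phenylhydrazine (PHZ), an oxidant that destroys red cells, once at 100 mg/kg. On day 4 of recovery CD71high Ter119+ erythroblasts were sorted from bone marrow of 3 mice per genotype, and 10 ng of RNA from each sample was hybridised to 1 single-colour Agilent array.

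The red cell membrane is a lipid bilayer tied from below to a mesh of spectrin and short actin filaments. Ankyrin (Ank1) links spectrin to band 3 (Slc4a1), the chloride-bicarbonate exchanger, and the Rh-associated glycoprotein (Rhag) sits in the same complex. A second attachment, at the ends of the actin filaments, is built around protein 4.1 and glycophorin C (Gypc), with the adducins (Add1, Add2) capping the fast-growing end of the filament and tropomodulin (Tmod1) the slow-growing end. Kel and Icam4 carry the Kell and Landsteiner-Wiener blood group antigens in man. Most of these genes are switched on as erythroblasts mature, and GATA1 is among the factors known to drive them.

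Promoters of 6 of the 9 genes were at hand in RefSeq (GRCm38.p6), and the 250 bases before the start site were searched on both strands for AGATAA, a usual form of the GATA1 site, and for its variants TGATAA, with the first letter changed, AGATAG, with the last letter changed, and TGATAG, with both changed. Kel, Icam4, Rhag and Add2 held at least 1 of them and Add1 and Tmod1 held none, while 26.5% of all 32851 promoters had one. The stretches with matches are shown because they are a feature that these 4 genes share and that the choice of genes did not use. Capitals mark the match, and a match is a description of letters only. Ank1, Slc4a1 and Gypc were not searched. The Kel sequence is chr6:41704326-41704575 on the minus strand, with matches that begin 56 and 19 bases before the start site. The Icam4 sequence is chr9:21029182-21029431 on the plus strand, with a match on the opposite strand 43 bases before the start. For Rhag the 30 bases at chr17:40811106-40811135 hold a match on the opposite strand 31 bases before the start. For Add2 the 60 bases at chr6:86028431-86028490 hold one on the opposite strand, 234 bases before the start.
Kel promoter: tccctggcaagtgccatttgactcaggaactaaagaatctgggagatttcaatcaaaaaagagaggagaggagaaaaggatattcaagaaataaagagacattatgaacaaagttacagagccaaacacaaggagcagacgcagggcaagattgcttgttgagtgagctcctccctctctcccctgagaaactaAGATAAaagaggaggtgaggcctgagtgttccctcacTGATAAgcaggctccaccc
Icam4 promoter: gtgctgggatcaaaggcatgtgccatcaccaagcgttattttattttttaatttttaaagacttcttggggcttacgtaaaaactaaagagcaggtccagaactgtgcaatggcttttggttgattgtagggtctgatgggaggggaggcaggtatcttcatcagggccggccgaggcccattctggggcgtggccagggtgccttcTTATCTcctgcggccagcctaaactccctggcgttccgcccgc
Rhag promoter, 30 bases: agtcctctgctcTTATCAacactatacagc
Add2 promoter, 60 bases: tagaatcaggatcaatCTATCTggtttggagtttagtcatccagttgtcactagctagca

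The probes of Add1, Icam4 and Tmod1 are shown because Add1 and Tmod1 were the members whose genotypes did not overlap, and because the pair of Add1 probes read different stretches of one message. The brighter Add1 probe begins at base 3976 of the transcript and lies at chr5:34974884-34974943 (mm9, plus strand). Its 30 bases below hold the polyadenylation letters AATAAA, in capitals. The dimmer Add1 probe begins at base 2491 and lies at chr5:34973399-34973458, and it reads without a stop codon in 1 of the 3 frames. The Icam4 probe begins at base 594 and lies at chr9:20834524-20834583, again with 1 frame free of stop codons. The Tmod1 probe begins at base 1350, lies at chr4:46127384-46127441 and has no frame free of stop codons, and its first 30 bases are shown.
Add1 brighter probe, 30 bases: aggttttactcacaAATAAAagtctttaag
Add1 dimmer probe: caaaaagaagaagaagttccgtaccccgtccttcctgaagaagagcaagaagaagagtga
Icam4 probe: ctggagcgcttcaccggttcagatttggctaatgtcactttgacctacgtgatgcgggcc
Tmod1 probe, 30 bases: ctagactgtagtcggaccttttataaaaca

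Of the 6 arrays, 5 had 28.9% to 38.2% of probes well above background, and the array P38α+/− replicate 1 had 53.1%. Of 8 late erythroid marker genes, all 8 were well above background on all 6 arrays, as was Tfrc, which encodes the sort marker CD71. The signals of a list were summed before the log2 was taken, so its brightest genes set the sum. For the late erythroid list it ran from 9.42 to 10.2 in P38α+/− and from 9.43 to 10.2 in P38α−/− samples. That sum was set mostly by Hba-a1 and Hba-a2 and says little of the other late genes. Of 5 early erythroid markers 2 were well above background on all arrays. The sum over the 5 overlapped (4.50 to 5.01 against 4.76 to 5.03), but it was set mostly by Zfpm1. The log2 difference, P38α−/− minus P38α+/−, was 0.10 for Zfpm1, −1.61 for Kit, −1.08 for Myb and −1.87 for Cd34. For the last 3 limma gave adjusted p of 0.16, 0.27 and 0.25. Kit and Cd34 were well above background on 2 and 1 P38α−/− arrays, so they were tested only through P38α+/− arrays. Gata2, with means of −6.38 and −7.77, was not tested. The mean was lower in P38α−/− samples for 4 of the 5 early and 5 of the 8 late markers. Whether the stage of the cells differed was not tested. All 9 neutrophil marker genes were also well above background on all 6 arrays, although the sort was for Ter119+ cells. The log2 of their summed signal was 6.76 to 8.14 in P38α+/− samples and 5.87 to 6.36 in P38α−/− samples, without overlap. Of 6 T or NK cell markers 2 were well above background on all arrays, and the list ran from −0.66 to 1.37 and from −1.21 to −0.86, again without overlap. The summed signals of the B lineage, monocyte or macrophage and megakaryocyte lists overlapped between genotypes. Of their markers 1 of 7, 4 of 7 and 3 of 6 were well above background on all arrays. The mean was lower in P38α−/− samples for 7 of 7, 7 of 7 and 2 of 6 of them, in that order. Of the genes of those lists, Mrc1, Ppbp and Gp1bb were not well above background on any array. The part of these markers in the values of the membrane genes was not tested.

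The targeted gene, Mapk14, had 2 probes. On the brighter one the arrays read 0.33, 0.58 and 0.61 in P38α+/− and 0.76, 1.19 and 1.20 in P38α−/− samples, and on the dimmer one the genotypes overlapped. The deleted part of the gene is not given relative to these probes in the sources used here, so they do not check the genotypes.

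Signals are given below as log2 of the scanner signal minus the array's 75th percentile over probes well above background on all arrays, so that 0 is the level of a fairly bright probe and 1 unit is a 2-fold difference. A difference is P38α−/− minus P38α+/−, and a gene was called when limma gave an adjusted p of at most 0.05 and a fold of at least 2 for any probe. None of the 9 membrane genes was called, where 0.191% of all tested genes (27 of 14157) were. At an unadjusted p of at most 0.05, limma again found 0 of 9, against 20.0% of all tested genes. The methods' unpaired test, run here on this report's scaling and probe filter, called 0 of 9. It called 0.0141% of all tested genes (2 of 14157), so that count says little. The paper ran its test on its own normalized values, so these counts are not those of the paper. With array weights, which called 11.8% of all tested genes, 0 of 9 was called too. The median difference of the 9 genes was −0.00, while the median over all 18777 tested probes was −0.16, and 8 of the 9 genes lay above that median. This gap depended on the scaling: with quantile normalization and with the authors' values 5 of the 9 lay above the median of all probes and the members' median was 0.006 and 0.0025 from it. The differences ran from −0.30 for Tmod1 to 0.24 for Add2, with standard errors of 0.14 to 0.21.

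**Figure D1:**
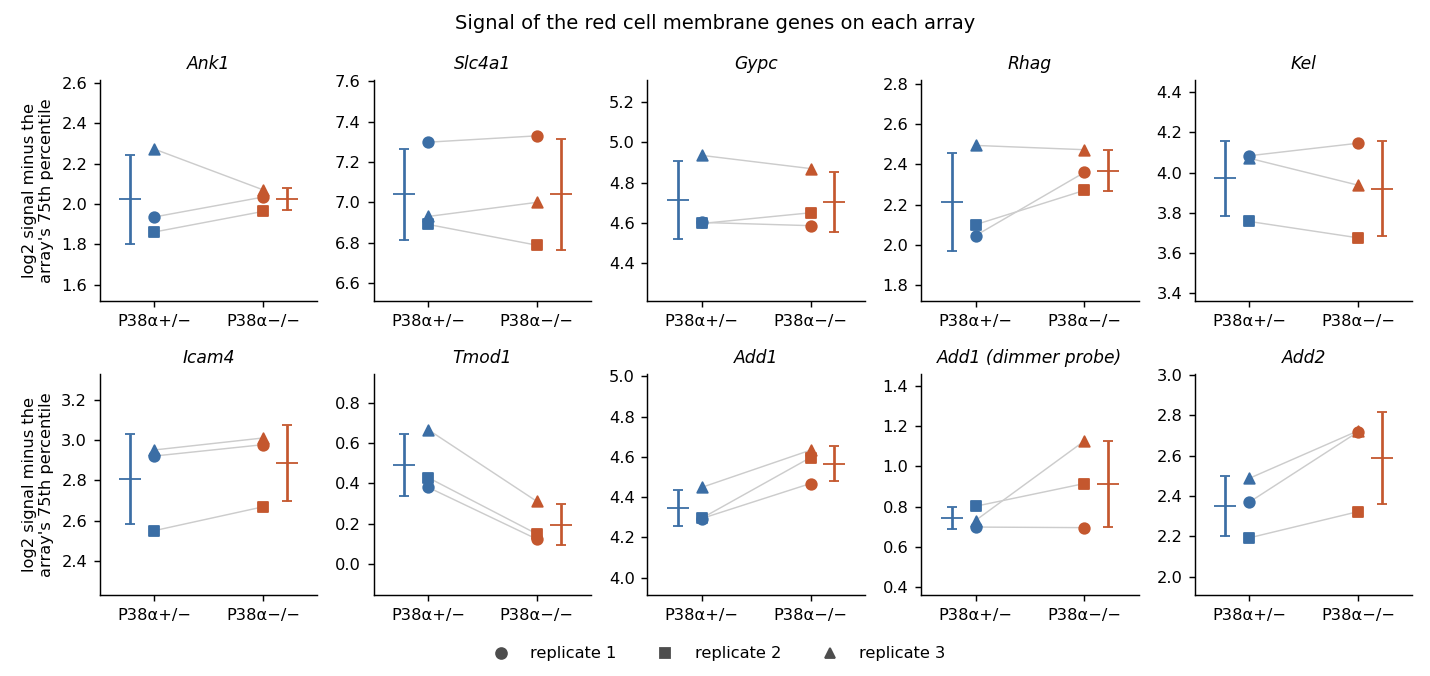
Signal of each membrane gene on each array, with 1 panel per probe and a vertical axis (log2 signal minus the array's 75th percentile) of the same span in every panel. Symbols are replicate numbers, grey lines join arrays of the same number, and bars are mean and SD (n = 3). Only Tmod1 and the brighter Add1 probe have genotypes that do not overlap.

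Slc4a1, whose product band 3 is the most abundant protein of the red cell membrane, read 7.30, 6.89 and 6.93 on the P38α+/− arrays and 7.33, 6.79 and 7.00 on the P38α−/− arrays. The probe begins at base 4368 of the transcript and lies at chr11:102210256-102210315 (mm9, minus strand). The high array of each genotype was replicate 1, and the means were 7.04 ± 0.23 and 7.04 ± 0.27 (SD, n = 3). The difference was −0.00 with a standard error of 0.21 (limma, adjusted p = 1.00), and its 95% interval was −0.50 to 0.50, that is from 0.71-fold to 1.42-fold.

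Ank1, the adaptor between band 3 and spectrin, read 1.94, 1.86 and 2.27 in P38α+/− and 2.03, 1.96 and 2.07 in P38α−/− samples (chr8:24259068-24259127, plus strand). All P38α−/− arrays lay inside the range of the P38α+/− arrays. The difference was −0.00 with a standard error of 0.17 and a 95% interval of −0.40 to 0.40 (limma, adjusted p = 1.00).

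Rhag, the membrane glycoprotein that carries the Rh proteins to the surface, read 2.05, 2.10 and 2.49 in P38α+/− and 2.36, 2.27 and 2.47 in P38α−/− samples (chr17:40976929-40976988, plus strand). The genotypes overlapped because P38α+/− replicate 3 was the highest of the 6 arrays. The difference of 0.15 was smaller than its standard error of 0.18 (95% interval −0.28 to 0.58, limma, adjusted p = 0.67).

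Gypc, which joins protein 4.1 to the bilayer, read 4.60, 4.60 and 4.94 in P38α+/− and 4.59, 4.65 and 4.87 in P38α−/− samples. Its probe lies at chr18:32688061-32688120 on the minus strand. Replicate 3 was the high array in both genotypes, and the difference was −0.01 ± 0.17 (SE, limma, adjusted p = 0.98), with a 95% interval of −0.43 to 0.41.

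The pair of blood group genes without a place in the skeleton also overlapped between genotypes. Kel, an endopeptidase of the cell surface, read 4.08, 3.76 and 4.07 in P38α+/− and 4.15, 3.68 and 3.94 in P38α−/− samples (chr6:41636474-41636533, minus strand). Icam4, an adhesion molecule that binds integrins, read 2.92, 2.55 and 2.95 in P38α+/− and 2.98, 2.67 and 3.01 in P38α−/− samples. In both genes and both genotypes replicate 2 was the low array, by at least the distance between the other two. The differences were −0.05 for Kel (SE 0.19, limma, adjusted p = 0.91) and 0.08 for Icam4 (SE 0.19, limma, adjusted p = 0.85), and the 95% intervals were −0.51 to 0.41 and −0.37 to 0.53.

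The 3 actin-capping genes held the differences farthest from 0, in both directions. Tmod1, which caps the pointed end of the filament, read 0.38, 0.43 and 0.67 in P38α+/− and 0.12, 0.15 and 0.31 in P38α−/− samples. Every P38α−/− array was below every P38α+/− array on this scale, but not with E1A centring or the 75th percentile of all probes. The difference was −0.30 (SE 0.16), a level 0.81-fold that of P38α+/−, with a 95% interval of −0.67 to 0.08, and it was not called (limma, adjusted p = 0.33). The exact two-sided permutation test gave p = 0.10, the smallest that 3 arrays against 3 allow. Of all tested genes 19.7% were lower in P38α−/− samples without overlap, against 1 of the 9 membrane genes.

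Add1, which encodes α-adducin, read 4.29, 4.30 and 4.45 in P38α+/− and 4.47, 4.60 and 4.63 in P38α−/− samples on its brighter probe, near the end of the message. The genotypes were apart by 0.019 log2 units at their nearest arrays, and they overlapped with E1A centring. The difference was 0.22 (SE 0.14, limma, adjusted p = 0.42), or 1.16-fold, with a 95% interval of −0.13 to 0.57, and the exact permutation test gave p = 0.10. Of all tested genes 7.45% were higher in P38α−/− samples without overlap, and Add1 was the 1 of 9 here. The dimmer Add1 probe, further 5′ in the message, read 0.70, 0.80 and 0.73 in P38α+/− and 0.70, 0.92 and 1.13 in P38α−/− samples. There the genotypes overlapped, with a difference of 0.17 (SE 0.17, limma, adjusted p = 0.61). The probes did not differ beyond their error, with a change in their distance of 0.05 (SE 0.10, exact permutation p = 0.70).

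Add2, which encodes β-adducin, the partner of α-adducin in the red cell, read 2.37, 2.19 and 2.49 in P38α+/− and 2.72, 2.32 and 2.72 in P38α−/− samples (chr6:86069490-86069549, plus strand). P38α−/− replicate 2 fell among the P38α+/− arrays. The difference was 0.24 (SE 0.18, limma, adjusted p = 0.49), or 1.18-fold, and its 95% interval was −0.20 to 0.68.

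**Figure D2:**
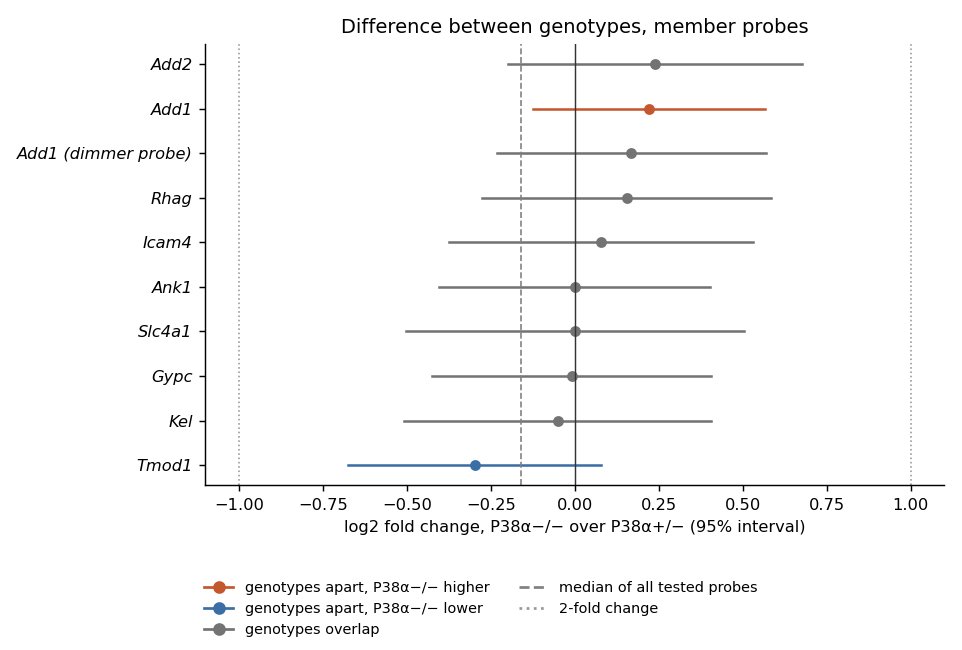
Difference between genotypes (P38α−/− over P38α+/−, log2 fold change, horizontal axis) of the 10 membrane gene probes with 95% intervals from limma. The dashed line is the median of all tested probes (−0.16) and the dotted lines are 2-fold changes. Every interval spans 0 and none reaches a dotted line.

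The intervals bound how far these genes could have moved. On this scale the 95% intervals of all 9 genes stayed within a 2-fold change in either direction, and those of 7 genes within 1.5-fold. This bound rests on the scaling of the arrays. When arrays were centred on the E1A spike-in RNA, the intervals of all 9 genes went past 2-fold, with Slc4a1 at 0.15 and an interval of −1.55 to 1.86, and the genotypes overlapped for all 9. With the 75th percentile of all probes the intervals of 8 genes went past 2-fold, with Slc4a1 at 0.48 and an interval of −0.23 to 1.19. With that percentile the 9 differences all lay above 0, Tmod1 included at 0.18 and with overlap, and their median was 0.48, while the median of all tested probes moved from −0.16 to 0.32.

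**Figure D3:**
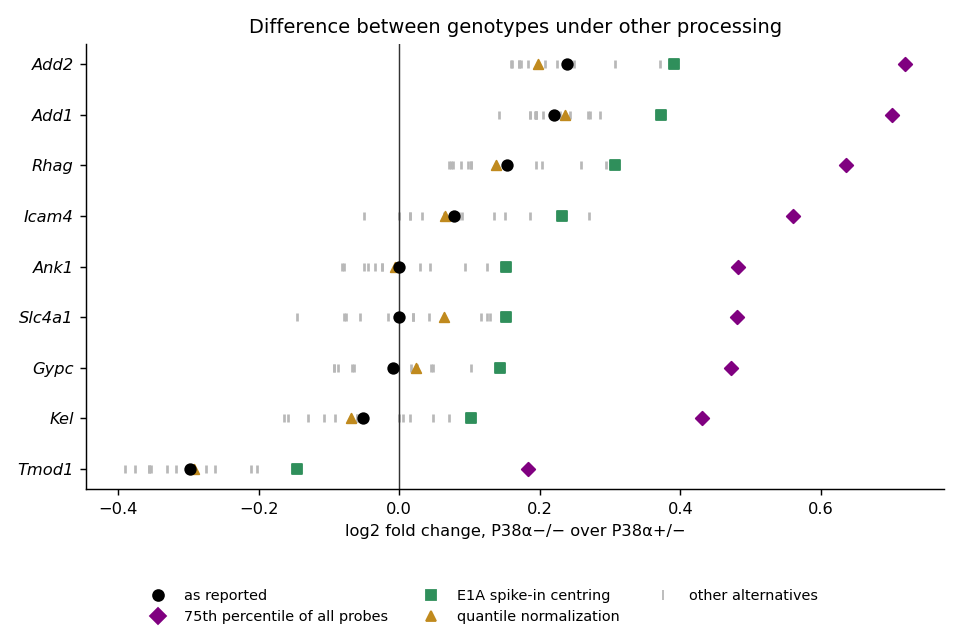
Difference between genotypes (log2 fold change, P38α−/− over P38α+/−, horizontal axis) of each membrane gene as reported and under other scalings, filters, fits and left-out arrays. The 75th percentile of all probes and E1A centring each move every gene by the same amount, so they cannot change the order of the genes. With quantile normalization Tmod1 is again lowest (−0.29), but Add1 (0.24) and not Add2 (0.20) is highest.

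A difference between 2 genes on the same array is not changed by a scaling that shifts all probes of an array alike, so all 36 pairs of the 9 genes were compared in this way. In 10 pairs the genotypes did not overlap, against 27.8% of all pairs of tested genes, so the count is no feature of these genes. Of these, 5 involved Tmod1 and 5 an adducin gene, the pairs of Tmod1 with each adducin gene counting under both. Tmod1 minus Add1 changed by −0.52 (SE 0.05) and Tmod1 minus Add2 by −0.54 (SE 0.14). The pairs were tested only by exact permutation. Its smallest possible p with these arrays was 0.10, and the smallest p was 0.36 after Benjamini-Hochberg adjustment over the 36 pairs. No pair could therefore pass that test, and it cannot decide whether a pair changed.

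Arrays with the same replicate number deviated together. Averaged over the 9 genes, the deviation from each gene's overall mean was −0.02, −0.16 and 0.13 in P38α+/− replicates 1 to 3 and 0.07, −0.12 and 0.10 in P38α−/− replicates 1 to 3. Replicate 2 was the low array and replicate 3 the high array in both genotypes. Within same-numbered arrays the Slc4a1 difference was 0.03, −0.10 and 0.07, the Icam4 difference 0.06, 0.12 and 0.06, and the Tmod1 difference −0.26, −0.28 and −0.36. With the replicate block the standard error of Slc4a1 fell from 0.21 to 0.12 and its 95% interval narrowed to −0.33 to 0.33, and Tmod1 was still not called (limma with the replicate block, adjusted p = 0.19).

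The probes whose signal followed Slc4a1 most closely were sought among 15538 probes well above background on all 6 arrays. They belonged to Clpp, a mitochondrial protease subunit, with a Pearson correlation of 0.998 over the 6 arrays, to Rpsa, a ribosomal protein, with 0.997, and to Ndst2, a heparan sulfate enzyme, with 0.997. In each, as in Slc4a1, replicate 1 of both genotypes was above the other 4 arrays. These are descriptions over 6 arrays, picked as the highest of many.

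Other genes of the membrane and its skeleton were read from a list of 34, of which 32 had a probe and 29 were tested. None was called, against the 0.191% of all tested genes, and 5 of 29 had an unadjusted limma p of at most 0.05, against 20.0% of all tested genes. Their median difference was 0.02, 22 of 29 lay above the median of all tested probes, and by the brightest tested probe 3 genes were higher and 3 lower in P38α−/− samples without overlap, against 7.45% and 19.7% of all tested genes. Over all 52 tested probes of the list, 4 were higher and 13 lower without overlap, and none was called. The shares above are per gene, and a share over all tested probes was not computed. These probe counts are therefore a description and no result about the list.

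Among the direct partners of the membrane genes, Sptb, which encodes β-spectrin, was well above background on 1 of 6 arrays and was not tested. The difference was −0.06 for Epb41, which encodes protein 4.1, 0.05 for Epb42, which encodes protein 4.2 of the band 3 complex, and 0.04 for Dmtn, which encodes the actin-bundling protein dematin. It was 0.05 for Rhd, 0.18 for Mpp1, the membrane scaffold p55, and −0.36 for Add3, the adducin of non-erythroid tissues. By these probes all 6 tested genes overlapped between genotypes, and Add3 did not pass the test (limma, adjusted p = 0.45). Dimmer probes disagreed for 3 of them, with 1 probe each of Epb41 (−0.50), Epb42 (−0.44) and Mpp1 (−0.86) lower without overlap and not called. That Mpp1 probe was well above background on 3 P38α+/− and 2 P38α−/− arrays, so it was tested only through the group where it is high. The tropomyosin genes of the skeleton overlapped by their brightest probe. They also had dimmer probes lower without overlap, 3 for Tpm1 (−0.44, −1.01 and −1.08) and 1 for Tpm3 (−0.99). A dimmer probe of the adhesion receptor gene Cd44 was lower too (−1.65), but it was well above background on 3 P38α+/− and 0 P38α−/− arrays. It was tested only through the group where it is high, so its lack of overlap is no result.

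Xk, whose product is linked to the Kell protein by a disulfide bond, was the farthest of the 29 from 0. It read −3.07, −3.21 and −2.69 in P38α+/− and −4.23, −3.55 and −3.78 in P38α−/− samples, without overlap. The difference was −0.86 (SE 0.24, 95% interval −1.43 to −0.28), or 0.55-fold, and was not called (limma, adjusted p = 0.14). A second Xk probe was also lower without overlap, by −0.37 (SE 0.15, limma, adjusted p = 0.23), whereas Kel, the partner, was at −0.05.

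By the brightest tested probe, 5 other genes had no overlap. Cd59a, an inhibitor of complement, read 0.58, 0.36 and 0.62 against 0.03, −0.01 and 0.06, a difference of −0.50 (SE 0.15, limma, adjusted p = 0.15), and Ermap, which carries the Scianna antigens, differed by −0.21 (SE 0.16, limma, adjusted p = 0.48). In the other direction Flot1, a lipid raft protein, differed by 0.55 (SE 0.17, limma, adjusted p = 0.16), Art4, which carries the Dombrock antigens, by 0.50 (SE 0.19, limma, adjusted p = 0.20), and Slc14a1, the urea transporter that carries the Kidd antigens, by 0.46 (SE 0.18, limma, adjusted p = 0.22). With the 75th percentile of all probes the 3 lower genes overlapped between genotypes, with Xk at −0.38, Cd59a at −0.01 and Ermap at 0.27, and with E1A centring all 6 overlapped. Both Art4 probes were higher without overlap, and of 3 Ermap probes 2 were lower without overlap and the third overlapped.

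**Figure D4:**
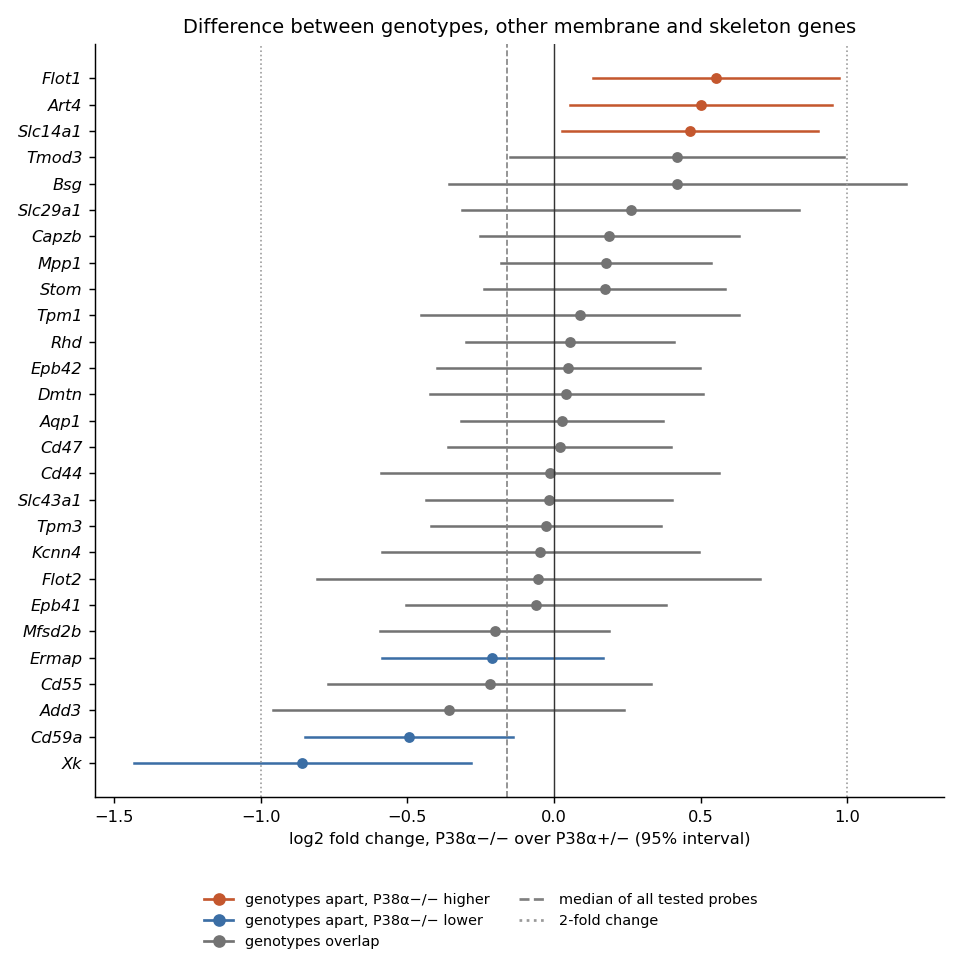
Difference between genotypes (log2 fold change, P38α−/− over P38α+/−, horizontal axis) of 27 of the 29 other membrane and skeleton genes tested, by the brightest tested probe, with 95% intervals from limma. Colours mark the 3 genes higher and 3 lower without overlap, and Xk lies farthest from 0 at −0.86.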

How the data were processed

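The authors deposited spot intensities from Agilent Feature Extraction 10.7.3.1 (mm9 annotation), background-subtracted within each array and not normalized between arrays. A series table of normalized intensities, also deposited by the authors, served as an alternative, and its column for P38α−/− replicate 2 correlated with that array's scanner signal at a Spearman rho of 0.8975, against at least 0.9999 for the other 5. The membrane genes and all lists were chosen with earlier results of these data known.

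Control and outlier spots were removed, spots of one probe averaged, and log2 signals centred on each array's 75th percentile over 15538 probes well above background on all 6 arrays. A probe was tested when all 3 arrays of either genotype had it well above background (18777 probes). Genotypes were compared in R 4.3.3 with limma 3.58.1, by a two-sided test with eBayes and Benjamini-Hochberg adjustment over all tested probes. The fit was checked on simulated data. A gene's value is its brightest tested probe. All 9 members were named with every probe. Other membrane genes were named when called, when among the 4 largest differences without overlap in each direction, or when direct partners of members. A few named by these rules are not reported here. Exact permutation tests used the 6 arrays. With 3 samples per genotype, the number of arrays limits the precision.

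Same-numbered arrays deviated together from their genotype means (correlations of 0.538, 0.312 and 0.424, against −0.476 to 0.183 for other pairs), and the submitters speak of pairs of mice, so the numbers pair the samples. The unblocked comparison follows the methods. Standard errors, intervals and permutation tests in this report leave out the pairing, except where the replicate block is named. With the block the standard errors of the members ran from 0.11 for Icam4 to 0.13 for Ank1. No member was called, where 64 of all 18777 tested probes were, so that count says little about the members.

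Alternatives were other scalings and background corrections, filters, the authors' table, a replicate block, a slide block, array weights, the methods' unpaired test, averaging a gene's probes, and leaving out arrays in turn. Centring on the members' median, no minimum fold, and leaving out both arrays of replicate 1 were added after seeing the data.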

Additional observations from a re-analysis of the deposited data

How the results depend on the processing

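No membrane gene was called under any of the 21 alternatives, but 8 of the 20 refitted called no probe of the whole array, so their counts of 0 show nothing about stability. The other 12 called between 2 and 1892 of all probes, and the fit with the replicate block changed no call among these genes. Among the other membrane genes 3 were called with array weights, where 11.8% of all tested genes were called, and none under the other alternatives run for that list. The calls came from dimmer probes of Epb41 (−1.02), Tpm1 (−1.01) and Cd44 (−1.37). This Epb41 probe is not the one given above at −0.50. In the main fit it differed by −0.76, with overlap between genotypes. The Cd44 probe was the one well above background on 0 P38α−/− arrays and tested only through P38α+/− arrays. The members' median difference moved to 0.48 with the 75th percentile of all probes and ran from −0.07 to 0.13 when single arrays were left out.

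Differences near 0 changed sign with the processing, and that of Tmod1, the farthest from 0, did so under 1 alternative. With the 75th percentile of all probes Ank1 came to 0.48, Slc4a1 to 0.48, Gypc to 0.47, Kel to 0.43 and Tmod1 to 0.18. With E1A centring Ank1 came to 0.15, Slc4a1 to 0.15, Gypc to 0.14 and Kel to 0.10. With normexp they came to 0.044, 0.020, 0.046 and 0.015 in that order, and with array weights to 0.094, 0.042, 0.14 and 0.049. Quantile normalization gave 0.063 for Slc4a1 and 0.024 for Gypc, the authors' values gave 0.12 and 0.025, and the slide block gave 0.019 for Slc4a1. The slide block amounts to leaving out P38α−/− replicate 3, which was alone on its slide, so slide and sample cannot be told apart there.

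When single arrays were left out, the ranges were −0.082 to 0.12 for Ank1, −0.15 to 0.13 for Slc4a1, −0.093 to 0.10 for Gypc, −0.16 to 0.071 for Kel, −0.050 to 0.19 for Icam4 and −0.36 to −0.21 for Tmod1. Add1, Add2 and Rhag lay above 0 under every alternative. The cause of these shifts was not tested.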
